A study of Mus musculus with 8 samples.

Results

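The 9 genes described here encode proteins that store maternal mRNA in the mouse oocyte or shorten its poly(A) tail: Btg4, Cnot6l, Cnot7, Zar1, Zar1l, Ybx2, Cpeb1, Zfp36l2 and Pabpn1l. They were chosen by name, with earlier results of these data known. A transcript cluster of the array stood for a gene only where its annotation named that gene alone under its current or an older symbol. All 9 were found among the 30705 genes so measured, each on a single transcript cluster, and all 9 had a mean log2 level of at least 6. RNA was measured on 8 Affymetrix whole-transcript arrays, each loaded with RNA of a pool of 100 mouse embryos at the late 2-cell stage. Zygotes came from B6C3F1 x CD1 matings after hormone stimulation, were fertilised in vivo, and were cultured in KSOM(aa) for 28 h after the time of injection, although the age label gives 24 h in vitro. In the full treatment, the ooplasm was injected at the mid-pronuclear stage with Trim21 mRNA and a COPS3 antibody, COPS3 being a subunit of the COP9 signalosome. TRIM21 is a ubiquitin ligase that binds the constant part of antibodies and sends them, with the protein they hold, for degradation (Trim-Away). Another group received the antibody alone, as its label says, since the injection protocol describes only the other groups. The last injected group received Trim21 mRNA, and non-manipulated embryos were left in the incubator. There were 2 pools per group, and no group was given a control antibody. Per the labels, embryos of the groups without antibody reached the 2-cell stage normally, whereas many zygotes of both antibody groups did not divide. The share of undivided zygotes in a pool is not given, and in a pooled sample fewer embryos of a stage and less RNA per embryo cannot be told apart.

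A growing mouse oocyte makes and stores mRNA that the embryo uses before its own genome is switched on, and most of that mRNA is cleared by the 2-cell stage. Storage depends on RNA-binding proteins such as YBX2 (also called MSY2), ZAR1 and ZAR1L, while CPEB1 holds mRNAs with a cytoplasmic polyadenylation element and steers their tail length and translation. Clearance begins when tails are removed by the CCR4-NOT complex, whose catalytic subunits include CNOT7 and CNOT6L, and which is brought to maternal mRNA by BTG4, by the poly(A)-binding protein PABPN1L and by the AU-rich element binder ZFP36L2.

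The genes and the transcript clusters that measured them were, with RefSeq gene positions on GRCm38.p6, Btg4 on chromosome 9 from 51102147 to 51119924 (TC0900000613.mm.1), Cnot6l on chromosome 5 from 96070333 to 96164198 (TC0500002790.mm.1), Cnot7 on chromosome 8 from 40492538 to 40515847 (TC0800002107.mm.1). For the storage proteins they were Zar1 on chromosome 5 from 72577113 to 72581361 (TC0500002576.mm.1), Zar1l on chromosome 5 from 150507055 to 150518194 (TC0500003679.mm.1), Ybx2 on chromosome 11 from 69935805 to 69941604 (TC1100000930.mm.1) and Cpeb1 on chromosome 7 from 81347026 to 81458001 (TC0700003608.mm.1). The remaining readers were Zfp36l2 on chromosome 17 from 84183924 to 84187947 (TC1700002647.mm.1) and Pabpn1l on chromosome 8 from 122619471 to 122622735 (TC0800003078.mm.1). Positions of the probes within the genes were not used here.

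Promoter sequence is shown for Ybx2, which had the largest difference of the 9 between the full treatment and Trim21 mRNA, for Btg4, the deadenylase adaptor, and for the paralogues Zar1l and Zar1, which moved in opposite directions between the full treatment and antibody alone. Sequences are from RefSeq on GRCm38.p6, whose table held 10 windows for 7 of the 9 genes, each running from 250 bases before an annotated start site to 50 bases after it. Each is given 5′ to 3′ on the gene's strand. Capitals mark the Y-box core searched for, ATTGG on either strand (CCAAT where it lies on the opposite one), which is the element that Y-box proteins such as YBX2 are named after.
Ybx2, chr11:69935649-69935948, plus strand: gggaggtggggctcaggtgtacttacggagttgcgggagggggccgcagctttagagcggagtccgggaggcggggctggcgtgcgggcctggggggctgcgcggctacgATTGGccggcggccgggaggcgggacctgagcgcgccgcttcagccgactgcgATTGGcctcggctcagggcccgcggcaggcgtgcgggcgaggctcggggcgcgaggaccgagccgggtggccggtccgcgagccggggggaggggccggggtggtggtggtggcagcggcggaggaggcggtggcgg
Btg4, chr9:51115751-51116050, plus strand: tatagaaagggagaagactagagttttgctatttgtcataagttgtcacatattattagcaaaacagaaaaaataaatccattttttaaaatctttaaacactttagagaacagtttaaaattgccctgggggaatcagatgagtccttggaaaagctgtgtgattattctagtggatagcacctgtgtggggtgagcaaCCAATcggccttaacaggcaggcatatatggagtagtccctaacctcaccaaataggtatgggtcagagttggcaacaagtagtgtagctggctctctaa
Zar1l, chr5:150518110-150518409, minus strand: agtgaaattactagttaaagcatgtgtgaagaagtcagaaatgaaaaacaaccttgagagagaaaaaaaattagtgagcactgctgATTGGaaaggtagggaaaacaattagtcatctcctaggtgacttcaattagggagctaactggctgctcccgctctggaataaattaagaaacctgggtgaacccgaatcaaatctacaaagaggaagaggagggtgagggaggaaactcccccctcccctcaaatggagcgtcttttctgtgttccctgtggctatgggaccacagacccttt
Zar1, chr5:72581035-72581334, minus strand: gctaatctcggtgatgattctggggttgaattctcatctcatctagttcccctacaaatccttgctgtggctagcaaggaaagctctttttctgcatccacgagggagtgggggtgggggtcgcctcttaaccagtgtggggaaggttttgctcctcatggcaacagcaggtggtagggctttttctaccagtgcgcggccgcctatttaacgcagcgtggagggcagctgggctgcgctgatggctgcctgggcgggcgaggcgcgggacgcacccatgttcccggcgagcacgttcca
The Y-box core was present at 140 and 87 bases upstream of the start site of Ybx2, 50 bases upstream of that of Btg4 and 164 bases upstream of that of Zar1l. It was absent from this window of Zar1 and from those of the other matched genes. It was present in 37.4% of the 32851 windows of all genes, and in 3 of the 10 windows of the matched genes. The second window of Ybx2, at another start site, held none. The G form of the element bound by NOBOX, an oocyte transcription factor, was searched for as TAATTG on both strands. It was found 145 and 120 bases upstream of the Zar1l start site on the opposite strand, without overlap with the Y-box core, and in 8.0% of all windows. Its A form, TAATTA, was in none of the windows of the 9 genes and in 5.29% of all windows. The E-box CANNTG was in 8 of the 10 windows and in 72.3% of all windows.

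Levels are the deposited log2 values. Each group was handled on its own day of the week and both of its pools came from the same day, so day and group cannot be told apart, and every p below measures only the spread between pools of a day. The number of arrays limits the precision. Array distributions differed. The array median was 5.15 and 5.29 for the full treatment, 5.24 and 4.86 for antibody alone, 4.87 and 4.90 for Trim21 mRNA and 4.75 and 4.77 for non-manipulated embryos, and the highest values on 3 of the arrays with antibody sat at a shared ceiling of 18.88 to 19.20, above every level of the 9 genes. Pools of antibody alone differed by over 2-fold at 4616 genes, against 809, 97 and 49 genes for the full treatment, Trim21 mRNA and non-manipulated embryos. Trim21 itself had levels of 10.40 and 10.30 in embryos of the full treatment and of 9.77 and 10.14 in those given its mRNA only, against 6.76 and 6.37 with antibody alone and 6.27 and 5.65 in non-manipulated embryos, as the labels state. Cops3 mRNA, which the method does not act on, was at 9.06 and 9.40 in the full treatment, 8.85 and 8.86 with antibody alone, 10.00 and 9.97 with Trim21 mRNA and 9.50 and 9.52 in non-manipulated embryos. It was called lower in the full treatment than with Trim21 mRNA (log2 difference -0.755, limma adjusted p = 0.0173). With antibody alone it differed from non-manipulated embryos by -0.655 (limma adjusted p = 0.0527, not called). Of the markers of other cells, the 9 measured of 10 for cumulus and granulosa cells had a summed log2 level of 8.66 to 8.68 in the full treatment, 10.42 to 11.14 with antibody alone, 8.93 to 8.99 with Trim21 mRNA and 9.52 to 11.48 in non-manipulated embryos. These markers did not move together. Between antibody alone and non-manipulated embryos 1 of the 9 was called (median difference 0.13): Cyp11a1 rose, at 9.93 and 9.05 against 6.38 and 6.32, whereas Hsd3b1 was at 6.88 and 10.32 against 8.59 and 10.35, and Inha at 5.90 and 7.67 against 6.30 and 10.32. The 5 measured of 6 for oviduct epithelium had 8.90 to 9.20 in the full treatment and 10.45 to 10.92 in the other groups. Of these only Epcam was called in the full treatment relative to Trim21 mRNA (8.14 and 8.55, against 10.75 and 10.62), and the median difference of the 5 was -0.02. The 6 sperm markers (7.51 to 7.94) and the 4 measured of 6 blood markers (6.94 to 7.19) stayed within narrow ranges, against 17.89 to 18.82 for the 10 oocyte and early embryo markers. Single markers of these 10 moved both ways, as given with the next comparison. The part of other cells in the results below was not tested.

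**Figure D1:**
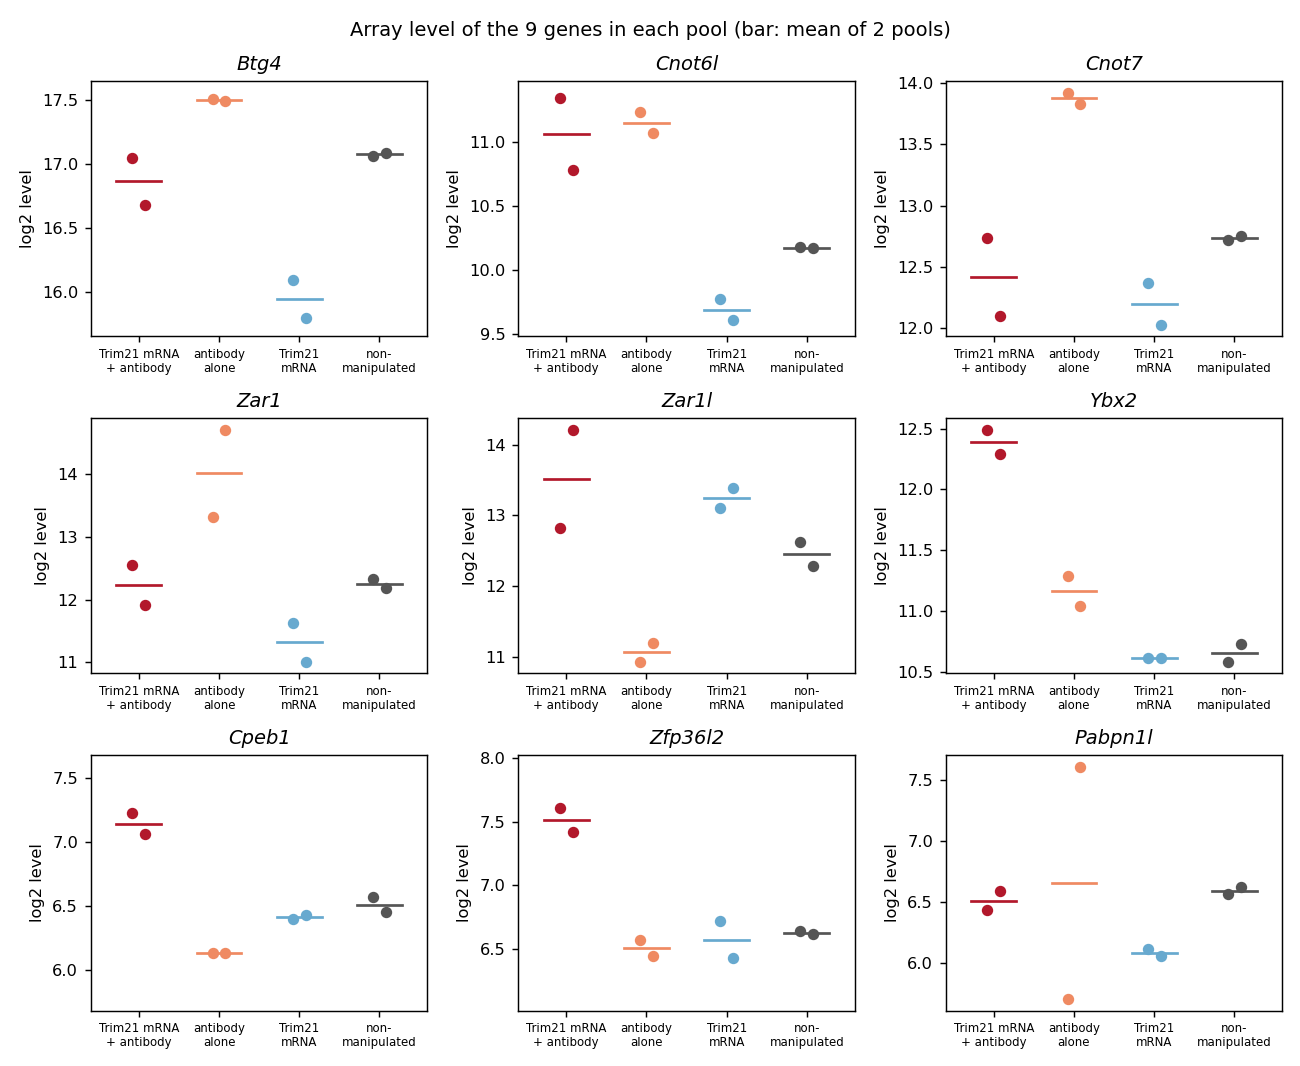
Deposited log2 level of each of the 9 genes in each pool, with a panel per gene, the groups along the horizontal axis, points for the 2 pools and a bar for their mean. Both Ybx2 pools of the full treatment (12.49 and 12.29) sit above every other pool, and Zar1 is highest with antibody alone where Zar1l is lowest.

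The comparison of the full treatment with Trim21 mRNA asks what the antibody added when TRIM21 was supplied. Ybx2, Cnot6l, Zfp36l2, Btg4 and Cpeb1 rose, which is 5 of the 9 genes at an adjusted p under 0.05 (limma, Benjamini-Hochberg over all genes). Of all genes tested, 8.72% rose and 14.5% fell (23.2% in either direction). Of the 10 oocyte and early embryo markers, 4 rose and 1 fell (median difference 0.62), so a raised share was not particular to the 9 genes. The 9 were chosen with earlier results of these data known, so the shares are a description and not an independent test. None of the 9 fell, and the differences of all 9 were above 0. The median difference of the 9 was 0.92 on the log2 scale, against 0.21 for all genes. In 7 of the 9 both pools of the full treatment lay above both pools of Trim21 mRNA, a pattern that 50.3% of all genes showed (26.4% showed the opposite one, as did none of the 9). The background differs with level. Among genes with a mean log2 level of 6 to 8, where Cpeb1 and Zfp36l2 lie, the median difference was -0.08 and 9.35% rose, among those of 10 to 12, where Ybx2 and Cnot6l lie, the median difference was -0.75 and 13.4% rose, among those of 12 to 14 it was -1.05 and 12.2% rose, and among those of 16 to 18, where Btg4 lies, it was -1.37 and 17.8% rose.

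BTG4 is the adaptor that links the deadenylase to maternal mRNA. Its transcript stood at 17.05 and 16.68 in the full treatment, 17.51 and 17.49 with antibody alone, 16.09 and 15.79 with Trim21 mRNA, and 17.06 and 17.09 in non-manipulated embryos. The pools of Trim21 mRNA were the lowest and those of antibody alone the highest, and the full treatment overlapped neither. Btg4 was 0.93 ± 0.19 higher in the full treatment than with Trim21 mRNA (log2 difference ± SE of the fit, n = 2 pools each, limma adjusted p = 0.013), or 1.90-fold. The call was lost without replicate 1 of the full treatment (0.74, adjusted p = 0.0574) or without replicate 2 of Trim21 mRNA (0.78, adjusted p = 0.114), and after centring each array on its median (0.59, adjusted p = 0.141). Against non-manipulated embryos the full treatment differed by -0.21 ± 0.19 (adjusted p = 0.393, 95% confidence interval -0.65 to 0.23), and Trim21 mRNA by -1.14 ± 0.19 (adjusted p = 0.438, unadjusted p = 0.000557).

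Cnot6l, which encodes a catalytic subunit of the CCR4 type, stood at 11.35 and 10.78 in the full treatment, 11.24 and 11.07 with antibody alone, 9.77 and 9.61 with Trim21 mRNA, and 10.18 and 10.17 in non-manipulated embryos. All 4 pools with antibody lay above all 4 without it. Cnot6l rose by 1.38 ± 0.22 in the full treatment relative to Trim21 mRNA (adjusted p = 0.00431, 2.59-fold). That call held under all 17 alternatives, with differences of 1.04 to 2.10. It also rose by 0.98 ± 0.22 with antibody alone relative to non-manipulated embryos (adjusted p = 0.035, 1.97-fold). The test of the difference between these rises gave 0.40 ± 0.30 (adjusted p = 0.703), with a 95% confidence interval of -0.33 to 1.12. The Cnot6l call with antibody alone did not hold under all alternatives, as described with that comparison.

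Cnot7, which encodes a catalytic subunit of the CAF1 type, had another pattern. Its level was 12.74 and 12.10 in the full treatment, 13.92 and 13.83 with antibody alone, 12.37 and 12.03 with Trim21 mRNA, and 12.72 and 12.75 in non-manipulated embryos. The pools of antibody alone lay above the 6 others, and the full treatment overlapped both groups without antibody. The difference between the full treatment and Trim21 mRNA was 0.22 ± 0.24 (adjusted p = 0.511, 95% confidence interval -0.35 to 0.79). It was -0.12 after centring and 1.10 after quantile normalization (adjusted p = 0.00577), and -0.10 without replicate 1 of the full treatment.

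Ybx2, the Y-box protein that coats and stabilises oocyte mRNA, stood at 12.49 and 12.29 in the full treatment, 11.29 and 11.04 with antibody alone, 10.61 and 10.61 with Trim21 mRNA, and 10.58 and 10.73 in non-manipulated embryos. The pools of the full treatment were highest, those of antibody alone next, and the groups without antibody overlapped. Ybx2 rose by 1.78 ± 0.17 in the full treatment relative to Trim21 mRNA (adjusted p = 0.000453, 3.43-fold), and the call held under all 17 alternatives, with differences of 1.45 to 2.65. Relative to non-manipulated embryos the full treatment was 1.74 ± 0.17 higher (adjusted p = 0.000462, 3.33-fold), a call that also held under all 17 alternatives.

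ZAR1 and its paralogue ZAR1L are zinc-finger proteins that hold stored mRNA in the oocyte cytoplasm. Zar1 stood at 12.55 and 11.92 in the full treatment, 13.31 and 14.70 with antibody alone, 11.63 and 11.01 with Trim21 mRNA, and 12.32 and 12.18 in non-manipulated embryos. Zar1l stood at 12.82 and 14.21 in the full treatment, 10.93 and 11.20 with antibody alone, 13.11 and 13.38 with Trim21 mRNA, and 12.63 and 12.29 in non-manipulated embryos. Antibody alone held the highest pools of Zar1 and the lowest of Zar1l, and the pools of a treated group differed from each other by up to 1.39 for either gene. Neither difference between the full treatment and Trim21 mRNA passed the test, with 0.92 ± 0.47 for Zar1 (adjusted p = 0.192) and 0.27 ± 0.42 for Zar1l (adjusted p = 0.652). The Zar1 difference was called after quantile normalization (1.83, adjusted p = 0.0307) and cyclic loess (1.63, adjusted p = 0.0372), and the Zar1l difference was -0.43 without replicate 2 of the full treatment. Zar1 was also called higher in the fit without the antibody-alone group, chosen after seeing the data, but not with only the groups compared.

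Cpeb1, the reader of cytoplasmic polyadenylation elements, stood at 7.23 and 7.06 in the full treatment, 6.13 and 6.13 with antibody alone, 6.40 and 6.43 with Trim21 mRNA, and 6.57 and 6.45 in non-manipulated embryos. The full treatment held the highest pools and antibody alone the lowest. Levels of Cpeb1, Zfp36l2 and Pabpn1l were low, with lowest pools of 6.13, 6.43 and 5.70. The sperm markers Prm1 and Prm2 read up to 6.27 and 6.40, and the other sperm markers read lower. The part of background signal in these levels was not tested. Cpeb1 rose by 0.73 ± 0.15 in the full treatment relative to Trim21 mRNA (adjusted p = 0.0127, 1.66-fold). The call was lost after centring (0.40, adjusted p = 0.218), without replicate 1 of the full treatment (adjusted p = 0.0539) and without replicate 1 or 2 of Trim21 mRNA (adjusted p = 0.107 and 0.0932).

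Zfp36l2, which binds AU-rich elements and recruits the deadenylase, stood at 7.61 and 7.42 in the full treatment, 6.57 and 6.45 with antibody alone, 6.72 and 6.43 with Trim21 mRNA, and 6.64 and 6.62 in non-manipulated embryos. The full treatment lay above the 6 other pools, and Trim21 mRNA overlapped both antibody alone and non-manipulated embryos. Zfp36l2 rose by 0.94 ± 0.17 relative to Trim21 mRNA (adjusted p = 0.0077, 1.92-fold). The call was lost without replicate 2 of Trim21 mRNA (0.80, adjusted p = 0.0797) and after centring (0.61, adjusted p = 0.0779).

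Pabpn1l, the poly(A)-binding partner of BTG4, stood at 6.43 and 6.59 in the full treatment, 5.70 and 7.61 with antibody alone, 6.11 and 6.05 with Trim21 mRNA, and 6.56 and 6.62 in non-manipulated embryos. The pools of antibody alone held both its lowest and its highest level. The full treatment differed from Trim21 mRNA by 0.43 ± 0.54 (adjusted p = 0.567), and none of the 6 comparisons called Pabpn1l in the fit to all arrays as deposited. This SE rests on a spread shared by all groups. The pools of antibody alone differed by 1.91, those of the full treatment by 0.16 and those of Trim21 mRNA by 0.06. Pabpn1l was called higher in the fit without the antibody-alone group, chosen after seeing the data, but not with only the groups compared.

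**Figure D2:**
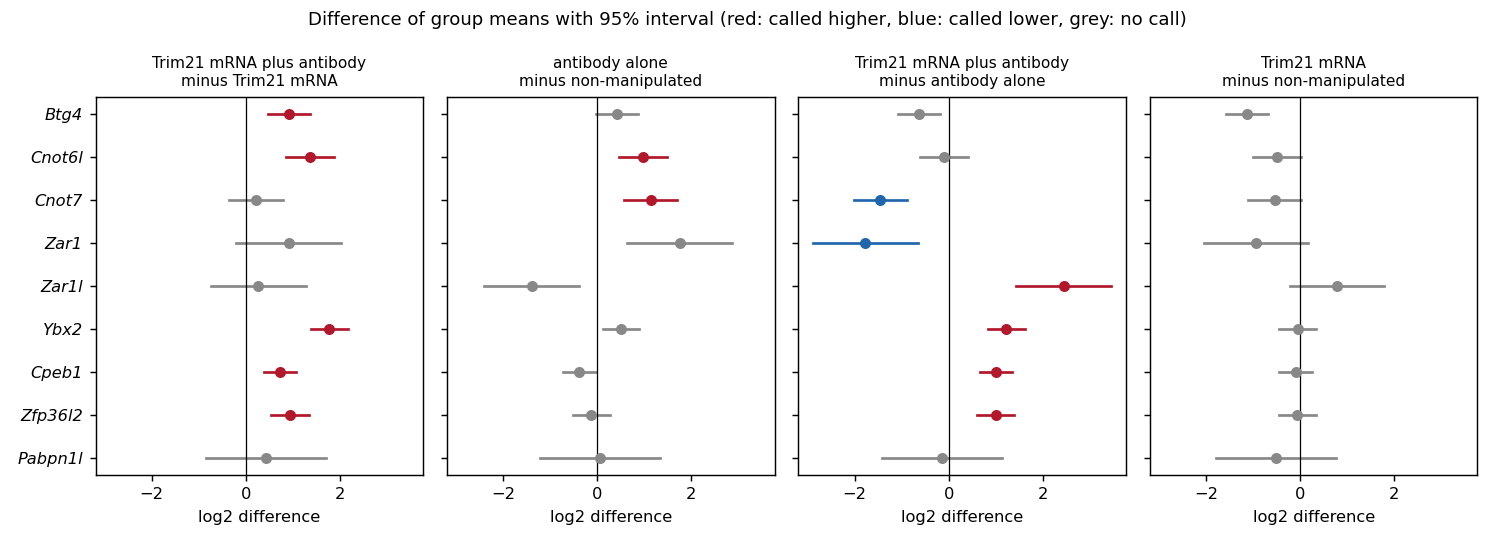
Log2 difference of each of the 9 genes in 4 comparisons, the first-named group of a panel's title minus the second, with points for the fitted difference and lines for its 95% confidence interval. Red marks genes that rose and blue genes that fell at a limma adjusted p under 0.05, and grey the rest. Ybx2 is at 1.78 in the full treatment relative to Trim21 mRNA, and every point is grey for Trim21 mRNA relative to non-manipulated embryos.

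Antibody alone against non-manipulated embryos covers injection and antibody together, without added TRIM21, since the non-manipulated embryos were not injected. The catalytic subunits among the 9 rose: Cnot7 by 1.14 ± 0.24 (limma adjusted p = 0.0307, 2.20-fold) and Cnot6l as given above. These were 2 of the 9 genes, where 2.76% of all genes rose and 7.29% fell (10% in either direction). Outside the 9, pools of Cnot6 overlapped (8.60 and 10.40 with antibody alone, 9.91 and 10.00 in non-manipulated embryos). So did those of Cnot8 (12.94 and 14.34, against 13.97 and 13.95). Zar1 differed by 1.76 ± 0.47 (adjusted p = 0.0631) and Zar1l by -1.40 ± 0.42 (adjusted p = 0.0898), neither of which passed the test. Ybx2 differed by 0.51 ± 0.17 (adjusted p = 0.107) and Btg4 by 0.43 ± 0.19 (adjusted p = 0.195). Cpeb1 differed by -0.38 ± 0.15 (adjusted p = 0.155), Zfp36l2 by -0.12 ± 0.17 (adjusted p = 0.631) and Pabpn1l by 0.07 ± 0.54 (adjusted p = 0.938). Both pools of antibody alone lay above both non-manipulated pools for 5 of the 9 (39.6% of all genes) and below for 3 (21.5%). Both calls were lost after centring, with only these 4 arrays fitted (adjusted p = 0.0819 for Cnot7 and 0.10 for Cnot6l), with array weights per group (0.152 and 0.133) and without any 1 of the 4 pools that had no antibody (adjusted p = 0.0664 to 0.218), and the Cnot6l call was also lost without replicate 1 of antibody alone (0.90, adjusted p = 0.0521). Without replicate 2 of antibody alone, Pabpn1l was at -0.89. Without replicate 1 it was at 1.02.

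The interaction compares a first difference, with TRIM21 supplied (full treatment minus Trim21 mRNA), with a second, without it (antibody alone minus non-manipulated). Only the second also covers injection, since non-manipulated embryos were not injected, so the interaction does not isolate the antibody. For Ybx2 the first exceeded the second by 1.27 ± 0.23 (adjusted p = 0.0346), and for Cpeb1 by 1.11 ± 0.21 (adjusted p = 0.0358). Of all genes, 0.625% were called in this direction and 3.46% in the other (4.08% in all). Ybx2 lay higher in both antibody groups than in their controls, whereas Cpeb1 lay higher in the full treatment and lower with antibody alone. Zfp36l2 had 1.06 ± 0.24 (adjusted p = 0.0643), Zar1l 1.67 ± 0.60 (adjusted p = 0.242) and Cnot7 -0.92 ± 0.34 (adjusted p = 0.258). Btg4 had 0.50 ± 0.27 (adjusted p = 0.49), Zar1 -0.84 ± 0.66 (adjusted p = 0.713) and Pabpn1l 0.37 ± 0.76 (adjusted p = 0.929). The calls of Ybx2 and Cpeb1 were lost without any 1 of the 6 pools outside antibody alone, with adjusted p of 0.0705 to 0.205 for Ybx2 and 0.0688 to 0.216 for Cpeb1. They were also lost after centring (adjusted p = 0.0534 for Ybx2 and 0.116 for Cpeb1) and with array weights per group (0.062 and 0.0812).

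**Figure D3:**
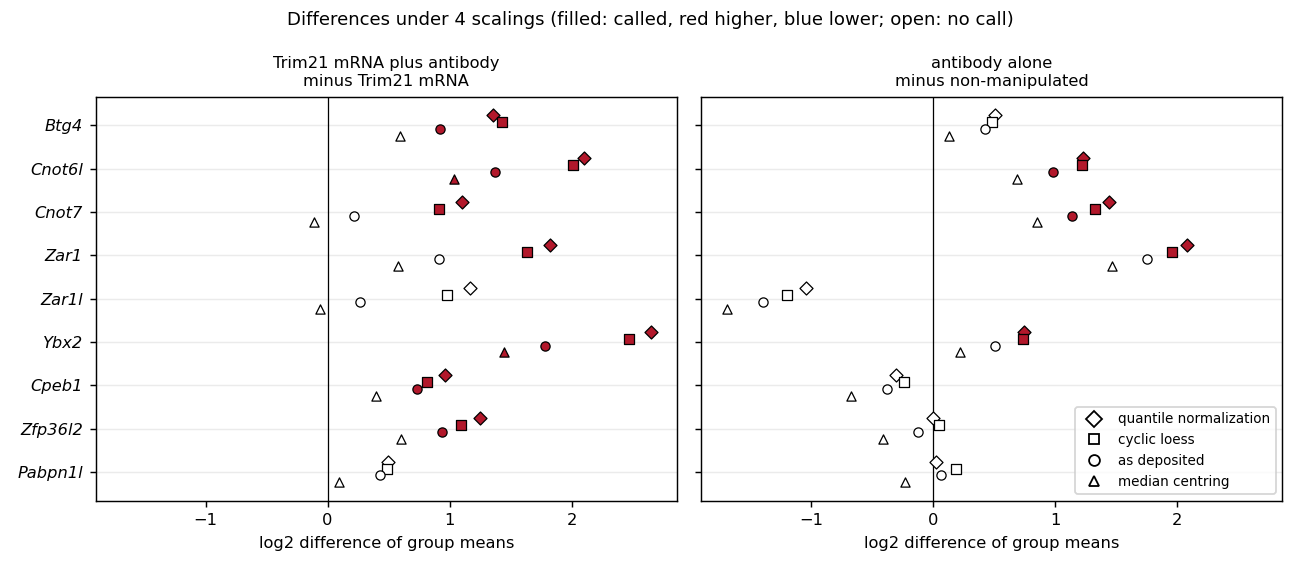
Log2 difference of each of the 9 genes under 4 scalings of the arrays (as deposited, quantile normalization, median centring and cyclic loess), for the full treatment minus Trim21 mRNA and for antibody alone minus non-manipulated embryos. Filled symbols are called at a limma adjusted p under 0.05 and open ones are not. Centring gives the lowest differences and quantile normalization or loess mostly the highest, and Ybx2 stays between 1.45 and 2.65 in the full treatment.

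The full treatment against antibody alone asks what the supplied TRIM21 added to the antibody. The called genes went both ways. Zar1l rose by 2.45 ± 0.42 (adjusted p = 0.00987, 5.46-fold), Ybx2 by 1.23 ± 0.17 (adjusted p = 0.00375, 2.34-fold), Cpeb1 by 1.02 ± 0.15 (adjusted p = 0.00493) and Zfp36l2 by 1.01 ± 0.17 (adjusted p = 0.00871). Cnot7 fell by 1.46 ± 0.24 (adjusted p = 0.00824, 2.74-fold lower) and Zar1 fell by 1.77 ± 0.47 (adjusted p = 0.0486, 3.41-fold lower). That is 4 higher and 2 lower of 9, where 4.37% of all genes rose and 10.5% fell (14.9% in either direction). Btg4 differed by -0.64 ± 0.19 (adjusted p = 0.0696), Cnot6l by -0.09 ± 0.22 (adjusted p = 0.83, 95% confidence interval -0.60 to 0.42) and Pabpn1l by -0.15 ± 0.54 (adjusted p = 0.894). Pools did not overlap for 4 higher genes (23.3% of all genes) and 3 lower ones (22.4%). The Zar1 call was lost in all fits that left out 1 array except the one without replicate 1 of antibody alone, with adjusted p of up to 0.248 without replicate 2 of the full treatment, and after each rescaling (adjusted p = 0.0832 to 0.158). The other 5 calls held without any 1 array, but with array weights per group only that of Ybx2 held (adjusted p = 0.0642 to 0.133 for the other 4). None of the 6 held when only these 4 arrays were fitted (adjusted p = 0.0603 to 0.153).

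The full treatment against non-manipulated embryos covers the whole procedure. Ybx2 (given above), Cnot6l (0.89 ± 0.22, adjusted p = 0.0217), Zfp36l2 (0.89 ± 0.17, adjusted p = 0.00875) and Cpeb1 (0.64 ± 0.15, adjusted p = 0.0186) rose. These were 4 of the 9, where 15.1% of all genes rose and 16.6% fell (31.7% in either direction). Both pools lay higher for 5 of the 9 (52.9% of all genes) and lower for 1 (28.8%). Zar1l differed by 1.06 ± 0.42 (adjusted p = 0.0945), Cnot7 by -0.32 ± 0.24 (adjusted p = 0.321), Zar1 by -0.02 ± 0.47 (adjusted p = 0.981) and Pabpn1l by -0.08 ± 0.54 (adjusted p = 0.912). Without either non-manipulated pool, and after centring, only Ybx2 was called. The Cnot6l call was also lost without replicate 1 of the full treatment (0.61, adjusted p = 0.0648), and the Cpeb1 call without that pool (adjusted p = 0.0656) or either pool of Trim21 mRNA (adjusted p = 0.0538 each).

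Trim21 mRNA against non-manipulated embryos covers injection and TRIM21 without antibody. None of the 9 genes was called (limma, 1 at an unadjusted p under 0.05, which was Btg4), and of all genes 0.00326% was called, which was Trim21 alone. Of all 30705 genes, 1928 had an unadjusted p under 0.05. With only these 4 arrays fitted, Btg4 (adjusted p = 0.0235), Cnot6l (0.0463) and Pabpn1l (0.0358) were called lower and Zar1l (0.0469) higher. With array weights per group, Btg4 (adjusted p = 0.00405), Cnot6l (0.0308), Cnot7 (0.042) and Zar1 (0.0291) were called lower. The differences were negative for 8 of the 9. They were -0.93 ± 0.47 for Zar1 (adjusted p = 0.873), -0.54 ± 0.24 for Cnot7 (adjusted p = 0.825), -0.49 ± 0.22 for Cnot6l (adjusted p = 0.819), -0.51 ± 0.54 for Pabpn1l (adjusted p = 0.967) and -0.05 to -0.10 for Ybx2, Zfp36l2 and Cpeb1. Zar1l had 0.79 ± 0.42 (adjusted p = 0.891). Both pools lay lower for 6 of the 9 (26.9% of all genes) and higher for 1 (33.8%). This comparison shares its Trim21 mRNA pools with the comparison of the full treatment above, where Btg4 rose, and Btg4 was lowest in those pools.

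The 9 genes varied along different lines. Pearson's r over the 8 arrays, which share groups and array distributions and are given as a description only, was 0.94 between Cpeb1 and Zfp36l2 and 0.91 between Ybx2 and Zfp36l2. It was 0.91 between Cnot7 and Zar1, 0.85 between Btg4 and Zar1, and -0.96 between Cnot7 and Zar1l. Zar1 and Zar1l had r = -0.80. Zar1 had the widest range over pools (11.01 to 14.70) and Cpeb1 the narrowest (6.13 to 7.23). Among 8828 named genes with a mean level of at least 6, the ones most like Ybx2 were Kcnh1 (r = 0.9920) and Kpna7 (r = 0.9909), those most like Cnot6l were Carmil1 (0.9962) and Fry (0.9957), and those most like Btg4 were Ice2 (0.9856) and Tcl1 (0.9851). For Cnot7 they were Nae1 (0.9940) and Atp2b1 (0.9899), for Zar1 Slc15a5 (0.9934) and Fbxl2 (0.9886), and for Zar1l Ndufb6 (0.9887) and Scarna6 (0.9721). For Cpeb1 they were Map3k12 (0.9839) and B3gnt8 (0.9822), for Zfp36l2 Per1 (0.9784) and Trem1 (0.9749), and for Pabpn1l Pecr (0.9868) and Ppil6 (0.9828). In the full treatment, replicate 1 held the higher level for 7 of the 9 and replicate 2 for Zar1l and Pabpn1l.

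Other genes of the same pathways were counted for the full treatment against Trim21 mRNA, where 8.72% of all genes rose and 14.5% fell, and where the share that fell was larger at higher levels (20.9% of genes whose mean lay from 6 to 8, 39.1% from 8 to 10, 45.8% from 10 to 12 and 52.1% from 12 to 14). Of 15 measured genes of CCR4-NOT, the BTG/TOB family and PAN deadenylation, 3 rose and 3 fell (median 0.12). Of these, Cnot10, a CCR4-NOT subunit, had levels of 7.08 and 7.10 with the full treatment, against 8.59 and 8.47 with Trim21 mRNA, and fell by 1.44 ± 0.15 (adjusted p = 0.00073). Btg3 fell by 2.60 ± 0.32 (adjusted p = 0.00162), whereas Btg2 rose by 0.99 ± 0.16 (adjusted p = 0.00543) and lost its call after centring. Both belong to the family of Btg4. Of 20 measured genes for proteins of stored mRNA and translational repression, transcripts of 6 rose and of 4 fell (median 0.31). Khdrbs1 fell by 1.19 ± 0.17 (adjusted p = 0.0033), Celf1 fell by 1.16 ± 0.23 (adjusted p = 0.0131) and Patl2 rose by 0.86 ± 0.14 (adjusted p = 0.00531). The calls of Khdrbs1 and Celf1 were lost after quantile normalization and loess and that of Patl2 after centring.

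Decay adaptors and readers of the 3′ end gave 0 rises and 2 falls among 12 measured (median 0.28, 5 at an unadjusted p under 0.05 by limma). Of all 30705 genes, 11758 had an unadjusted p under 0.05 in this comparison. Tut4, a uridylyltransferase that marks deadenylated mRNA, fell by 0.95 ± 0.18 (adjusted p = 0.0101), and Xrn1, the 5′ to 3′ exonuclease, fell by 0.79 ± 0.23 (adjusted p = 0.0473, not called after quantile normalization or loess). Genes of poly(A) binding and polyadenylation gave 3 rises and 7 falls among 15 measured (median -1.08). The 46.7% that fell is close to the shares of all genes at levels of 10 to 12 and 12 to 14, whose median differences were -0.75 and -1.05. Pabpc1, the main cytoplasmic poly(A)-binding protein, was at 10.95 and 10.63 in the full treatment, 12.52 and 12.75 with antibody alone, 13.61 and 13.49 with Trim21 mRNA and 13.86 and 13.82 in non-manipulated embryos. Both groups with antibody lay below both groups without, and Pabpc1 fell by 2.76 ± 0.18 in the full treatment relative to Trim21 mRNA (adjusted p = 0.000114, 6.77-fold lower). Papola, the nuclear poly(A) polymerase, fell by 2.05 ± 0.27 (adjusted p = 0.00192), and Cpsf1, of the cleavage and polyadenylation complex, fell by 1.40 ± 0.19 (adjusted p = 0.00228).

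After their values were seen, 3 further genes were picked as partners of the 9. Pabpc1l, the embryonic poly(A)-binding protein, rose by 1.35 ± 0.33 (adjusted p = 0.0271, and 0.0616 after centring) and Eif4e1b, the oocyte cap-binding protein, rose by 2.10 ± 0.55 (adjusted p = 0.035, and 0.131 after centring). Ybx1, the broadly expressed relative of Ybx2, fell by 0.80 ± 0.19 (adjusted p = 0.0228), and was at -0.08 after quantile normalization (adjusted p = 0.779). Of 7 measured transcripts that are known to be stored and then translated or cleared, none rose and 2 fell (median -0.74). By limma 5 of the 7 had an unadjusted p under 0.05, as did 11758 of all 30705 genes. Tpx2, a spindle protein, fell by 1.64 ± 0.16 (adjusted p = 0.000537), and the checkpoint kinase Bub1b fell by 0.75 ± 0.20 (adjusted p = 0.0389, not called after quantile normalization or loess). With 1 array left out in turn, the calls of Cnot10, Btg3, Khdrbs1, Pabpc1, Papola, Cpsf1 and Tpx2 held in all 8 fits. Those of Btg2, Patl2, Tut4 and Celf1 held in 7, 6, 5 and 4 fits, those of Ybx1, Bub1b and Pabpc1l in 3, and those of Eif4e1b and Xrn1 in 2. The scaling moved these counts of calls too. After quantile normalization 11 of the 20 genes of stored mRNA rose and none fell, and after centring none rose and 5 fell, while for poly(A) binding and polyadenylation the counts were 4 rises and 3 falls after quantile normalization and 0 and 7 after centring.

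**Figure D4:**
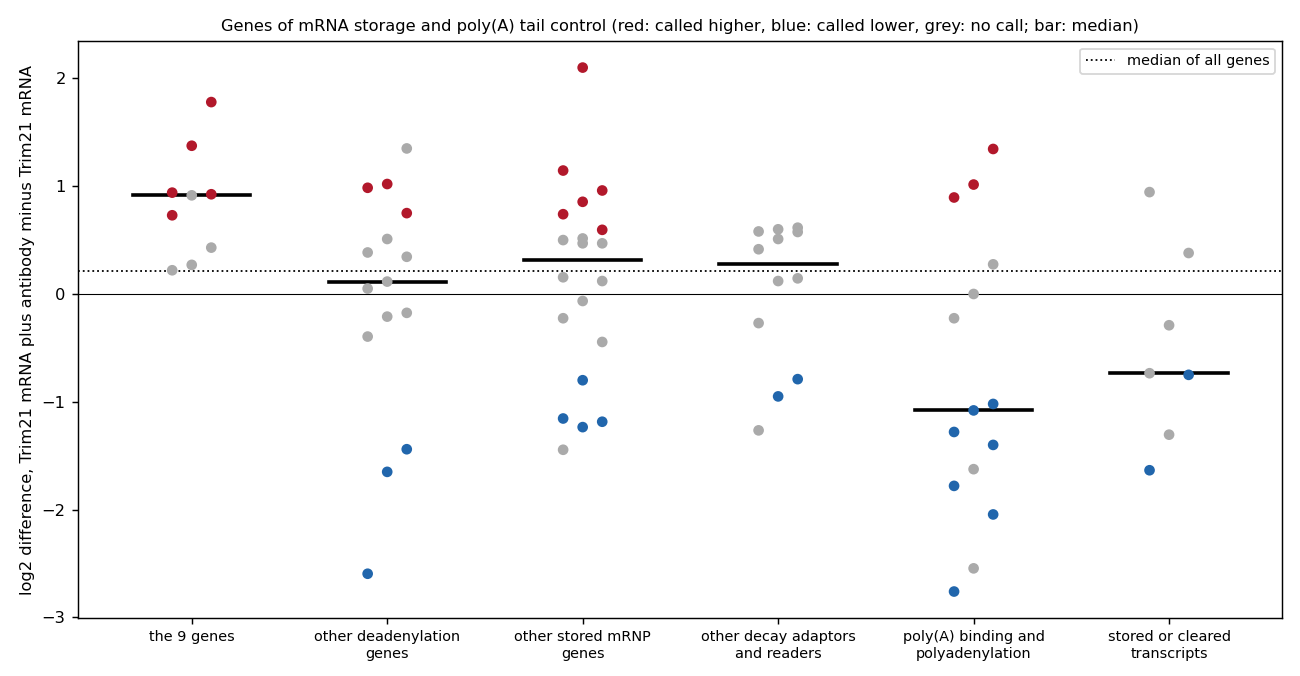
Log2 difference of each measured gene in the full treatment minus Trim21 mRNA, for the 9 genes and 5 lists of other genes of the pathways, with red and blue points for genes that rose and fell at a limma adjusted p under 0.05, grey for the rest, a bar for the median of each list and a dotted line at the median of all genes (0.21). The 9 genes all lie above 0, while most genes of poly(A) binding and polyadenylation lie below.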

How the data were processed

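Biotinylated cDNA was made with a GeneChip WT Pico kit, per the labels' protocols. The deposited values are on the log2 scale, 1 per transcript cluster, made in Affymetrix Expression Console per the submitters' processing notes. For its version, the summarisation method and any normalization between arrays, nothing is stated in the labels, and scanner values were not used here. Column medians and spreads differ, so the arrays do not share a distribution. Of 65956 clusters, 1 was dropped because a cell held a value over 100. Symbols came from the array annotation and were updated through RefSeq: 31262 clusters named 1 gene, 1487 several and 33206 none, and 1780 symbols were updated. For the 442 genes on several clusters the one with the highest mean was used, which left 30705 genes.

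A single limma fit (limma 3.58.1, R 4.3.3, lmFit and eBayes, two-sided) of 4 group means to all 8 arrays gave every difference, with no filter on level and no rescaling. It had 4 residual and 6.83 total degrees of freedom. P was adjusted by Benjamini-Hochberg over all genes within a comparison, with calls made below 0.05. The script was tested on simulated data in which a gene had the same spread in every group. Spread between pools differed among the real groups, so that test does not bear on the calls made here. Alternatives were quantile normalization, median centring, cyclic loess, a filter on mean level (at least 6), the mean of a gene's clusters, only the groups compared, array weights per group, a block for the replicate number, and leaving out each array in turn. A fit without the antibody-alone group was chosen after seeing the data.

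The 9 genes and the lists of other genes were chosen with earlier results of these data known. The genes named from each list were the called ones with the smallest p, up to 3, and those most like each of the 9 were the 2 with the highest Pearson correlation. Motifs were searched in RefSeq promoter windows of GRCm38.p6. No window was used for Cnot7 or Zfp36l2.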

Additional observations from a re-analysis of the deposited data

Results flagged for a closer look

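For Ybx2 the interaction was 1.27 ± 0.23 on the log2 scale (limma interaction, adjusted p = 0.0346). The differences were 1.78 for the full treatment minus Trim21 mRNA and 0.51 for antibody alone minus non-manipulated embryos. The latter comparison also covers injection, and no control antibody was given, so the interaction does not isolate the antibody. For Cpeb1 the interaction was 1.11 ± 0.21 (limma interaction, adjusted p = 0.0358), with differences of 0.73 and -0.38 for the same comparisons. Cpeb1 levels were low (6.13 to 7.23), and the sperm markers Prm1 and Prm2 read up to 6.27 and 6.40. Ybx2 and Cpeb1 stand here because the interaction test passed the threshold. Each lost its call when the replicate number was used as a block, with adjusted p of 0.0699 for Ybx2 and 0.0746 for Cpeb1, and when any 1 of the 6 pools outside antibody alone was left out. Day and group cannot be told apart in either.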

How the results depend on the processing

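Of the 54 differences of the 9 genes, 19 were called, and 3 of these held under all alternatives: Ybx2 in the full treatment against Trim21 mRNA and against non-manipulated embryos, and Cnot6l in the first of these. Of the 19, 8 held with any 1 array left out and 0 changed sign. The count of the 9 genes called in the full treatment against Trim21 mRNA was 5, but 2 after centring and 2 to 7 with 1 array left out (2 without replicate 2 of Trim21 mRNA, 3 without replicate 1 of the full treatment). For antibody alone against non-manipulated embryos it was 2, but 4 after quantile normalization or loess, 0 after centring, with only the groups compared or with array weights, and 0 to 5 with 1 array left out. For Trim21 mRNA against non-manipulated embryos it was 0, but 4 with only the groups compared (Btg4, Cnot6l, Zar1l and Pabpn1l) or array weights (Btg4, Cnot6l, Cnot7 and Zar1), and 0 to 0 with 1 array left out. For the full treatment against antibody alone it was 6, but 0 with only the groups compared and 1 with array weights, and 5 to 7 with 1 array left out. Between the full treatment and non-manipulated embryos it was 4, but 1 after centring and 1 to 4 with 1 array left out. For the interaction it was 2, but 0 after centring or with array weights, and 0 to 4 with 1 array left out. The cause of these changes was not tested. Leaving out an array leaves fewer degrees of freedom, and it also takes the gap between the pools of that group out of the spread shared by all comparisons.

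Counts over all genes moved too. For the full treatment against Trim21 mRNA, 7125 genes were called, 10891 with only the groups compared, 11944 with array weights, 14193 without the antibody-alone group and 3366 to 14193 with 1 array left out. The split into rises and falls was 2677 and 4448, but 3210 and 3787 after quantile normalization, 876 and 5365 after centring and 2890 and 3804 after loess. For antibody alone against non-manipulated embryos, 3083 genes were called (limma), 0 with only the groups compared (5814 at an unadjusted p under 0.05), 1177 with array weights and 94 to 13796 with 1 array left out. The split was 846 and 2237, but 1017 and 1395 after quantile normalization, 352 and 2644 after centring and 1244 and 1722 after loess. For the full treatment against antibody alone, 4560 were called, 1408 with only the groups compared, 2003 with array weights and 2490 to 10446 with 1 array left out. The split was 1343 and 3217, but 2148 and 2730 after quantile normalization, 796 and 3537 after centring and 1751 and 2670 after loess. Between the full treatment and non-manipulated embryos, 9741 were called, 6245 with the level filter, 14702 with only the groups compared, 15737 with array weights, 17541 without the antibody-alone group and 3935 to 17541 with 1 array left out. The split was 4644 and 5097, but 1200 and 7084 after centring. For Trim21 mRNA against non-manipulated embryos, 1 was called, 0 after quantile normalization, centring or loess (1713, 1933 and 2162 at an unadjusted p under 0.05), 2520 with only the groups compared, 3739 with array weights and 0 to 1 with 1 array left out. The interaction had 1253, with 99 to 5663 when 1 array was left out. Its split was 192 and 1061, but 515 and 738 after quantile normalization and 372 and 743 after loess. Centring moved the median of all genes from 0.21 to -0.13 in the full treatment against Trim21 mRNA.

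Replicate numbers did not pair the samples, since deviations of pools with the same number correlated at -0.19 to 0.14 between groups. With the replicate number as a block the counts of the 9 genes were 5, 2, 0, 5 and 4 in the order above and 0 for the interaction, and 0 genes in all were called for Trim21 mRNA against non-manipulated embryos (1692 at an unadjusted p under 0.05).

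Differences that changed sign were not called with all arrays as deposited. After quantile normalization, Zfp36l2 was at 0.001 for antibody alone against non-manipulated embryos, Cnot6l at 0.409 and Pabpn1l at 0.029 between the full treatment and antibody alone, and Cnot7 at 0.642, Zar1 at 0.961 and Pabpn1l at 0.057 between the full treatment and non-manipulated embryos. After centring, Cnot7 was at -0.115 and Zar1l at -0.065 in the full treatment against Trim21 mRNA, and Pabpn1l at -0.225 with antibody alone. After loess, Zfp36l2 was at 0.052 with antibody alone and 0.037 with Trim21 mRNA, Cnot6l at 0.331 in the full treatment against antibody alone, and Btg4 at 0.264, Cnot7 at 0.379, Zar1 at 0.703 and Pabpn1l at 0.048 in the full treatment against non-manipulated embryos. With 1 array left out, the last of these comparisons gave Zar1 -0.33 to 0.30 (0.055 without non-manipulated replicate 1, 0.30 without replicate 2 of the full treatment), Cnot7 -0.635 to 0.005 (highest without the same pool) and Pabpn1l -0.16 to 0 (highest without replicate 1 of the full treatment). Trim21 mRNA against non-manipulated embryos gave Ybx2 -0.12 to 0.03 (highest without non-manipulated replicate 2) and Zfp36l2 -0.20 to 0.09 (highest without Trim21 mRNA replicate 2). The full treatment gave Cnot7 -0.10 to 0.54 and Zar1l -0.425 to 0.965 against Trim21 mRNA (lowest without its replicate 1 for Cnot7 and its replicate 2 for Zar1l), and Cnot6l -0.375 to 0.195 against antibody alone (highest without its replicate 2). Without replicate 2 or 1 of antibody alone, Pabpn1l ran from -0.89 to 1.02 in antibody alone against non-manipulated embryos, 0.81 to -1.10 in the full treatment against antibody alone, and 1.32 to -0.59 in the interaction.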
